A study of Mus musculus with 6 samples.

Results

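Contacts missing only at 6 h are pairs of 5 kb bins whose contact was listed strongly in untreated P19 cells and again after 48 h of retinoic acid, but not after 6 h. A member is an autosomal pair of bins 20 kb to under 1 Mb apart with a count of 0 in both 6 h libraries. In each of the 4 libraries of the other time points its count had to reach 1.5 times the lowest count that the library lists at the same distance. The smallest of these 4 multiples is called the strength of a pair, and a pair that meets the rule at a given pair of time points is called strong there. The rule found 7901 pairs among the 3,654,014 of the deposited list, of which 2,710,982 are autosomal and in this range of distances. The members were chosen by their counts at all 3 time points, so those counts are a description and carry no test.

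The data are Hi-C read pairs from P19 cells, a mouse embryonal carcinoma line grown as a monolayer on gelatine. The groups are untreated cells (T0) and cells given all-trans retinoic acid (ATRA) at 1e-06 M for 6 h (T6) or 48 h (T48), with 2 libraries each. All groups share the line and the medium. The samples used here include none untreated at the later times, so an effect of ATRA and one of culture time cannot be told apart. Whether replicates came from separate cultures is not labelled, and p-values then cover the spread of these libraries only, which may be technical. P19 cells come from a tumour, and a single line was used.

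Hi-C crosslinks nuclei, joins DNA ends that are neighbours in space and counts the joined fragments. Loci far apart along a chromosome meet as cohesin extrudes loops, many of which stop at sites bound by CTCF, and enhancers meet promoters within such domains. Retinoic acid acts through nuclear receptors of the RAR and RXR families, which then exchange co-repressors for co-activators at their target genes. P19 cells answer to retinoic acid by leaving the pluripotent state. A lower count in a cell population can come from fewer cells with the contact or from a weaker contact in each cell, which cannot be told apart here.

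A 0 in these data is a pair left off the list of a time point, not a measured absence. Both T6 libraries were listed or at 0 together, with 0 exceptions. The lowest listed count depended on distance alone: in each of the 6 libraries it was the same on all 19 autosomes at 196 of 196 distances. At 200 kb it was 6 read pairs in every replicate 1 and 4 in every replicate 2. A member therefore had no listed T6 count, and how many read pairs it had at T6 cannot be read from the files. T6 also had the shortest list, with 1,290,986 pairs of this range before ATRA, 1,073,618 at 6 h and 1,180,199 at 48 h. The listed counts of the range summed, replicate 1 first, to 16,629,913 and 10,732,876 read pairs before ATRA, to 12,841,920 and 8,144,060 at 6 h, and to 13,154,511 and 9,638,546 at 48 h.

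Most members were not far above the threshold: their median strength was 1.64, 1332 had a strength of at least 2, and 56 one of at least 3. Their median count was 14 and 9 in the T0 libraries and 13 and 9 in the T48 libraries, with ranges of 5 to 94 and 5 to 162 at T0 and of 5 to 74 and 5 to 177 at T48. The lowest count listed at T6 at their distances had a median of 6 in replicate 1 and 4 in replicate 2. In each of the 4 libraries of T0 and T48 the median member stood at 2 times the lowest listed count. Members lay a median of 185 kb apart, with quartiles of 85 and 340 kb. The 49,216 pairs that were as strong at T0 and T48 and listed at T6 lay a median of 120 kb apart, with median counts of 21 and 13 in untreated cells, 18 and 10 after 6 h, and 19 and 13 after 48 h. The lower of the T6 multiples of these kept pairs had a median of 1.8. The threshold has no gap around it. The 3158 members with a lowest multiple of 1.5 to under 1.6 had median counts of 13 and 9 at T0 and 12 and 9 at T48. They lay a median of 175 kb apart. The 2984 pairs just outside, from 1.4 to under 1.5, had 15 and 10 at T0 and 14 and 10 at T48. These lay a median of 110 kb apart, and the lowest listed count depends on distance, so the counts are not directly comparable.

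Strong contacts were also missing at the other time points. Members made up 13.8% of the 57,117 pairs that met the rule at T0 and T48 (95% Wilson interval 13.6 to 14.1%, counting error only). By the same rule, 4619 of 48,812 pairs (9.46%) were missing only at T0, and 11,650 of 63,309 (18.4%) only at T48. The order T0, T6, T48 held on 18 of 19 autosomes, the share at T6 being above that at T0 on 19 and below that at T48 on 18. Lists have no replicate error, so these shares were not tested against each other.

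The share missing was highest among weak contacts. Among pairs with a lowest multiple of 1.5 to under 2, 18.6% were missing at T6, against 7.72% from 2 to under 3 and 1.08% from 3 upwards (56 of 5169 pairs). In the last of these classes the share was 0.868% for T0, 1.08% for T6 and 3.15% for T48, and the Wilson intervals of T0 and T6 overlapped (0.635 to 1.18% and 0.835 to 1.40%). The share also differed with distance. From 20 to 50 kb 8.87% of strong pairs were missing at T6, and from 500 kb to 1 Mb 21.2%. For T0 these shares were 4.92% and 16.3%, and for T48 they were 17.3% and 18.8%. Within the multiples of 2 to under 3, the T6 share was 2.95% at 20 to 50 kb and 16.7% from 500 kb. At the same distances it was 1.87% and 11.9% for T0, and 13.6% and 15.3% for T48. A given multiple stands for fewer read pairs at long range. In T0 replicate 1, listing began at 22 read pairs at 20 kb and at 4 read pairs at 500 kb. This class therefore does not hold the number of read pairs constant over distance.

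**Figure D1:**
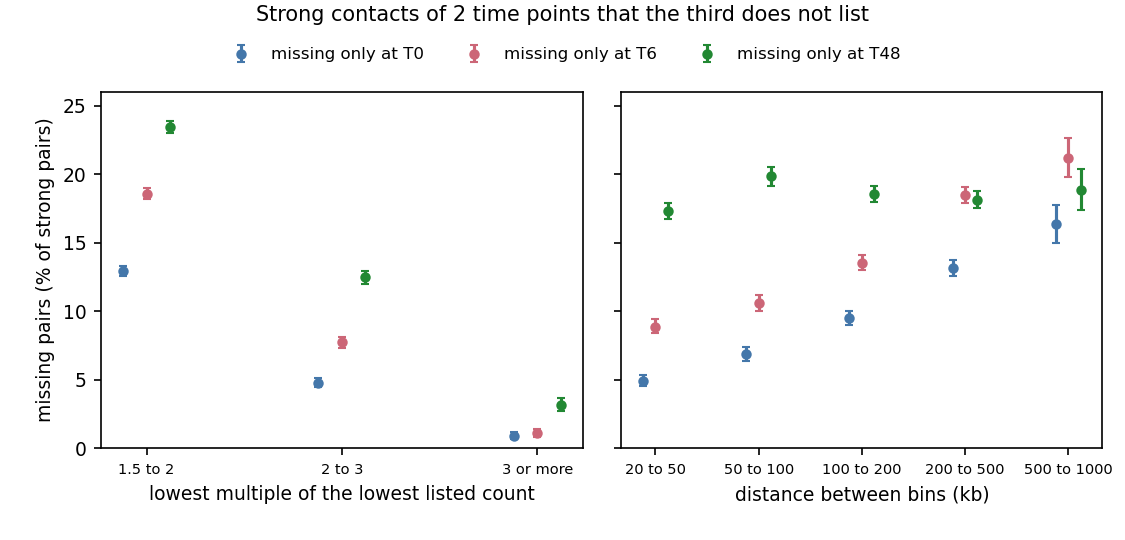
Share of strong pairs (percent, vertical axis) that the list of T0, T6 or T48 leaves out, by the lowest multiple of the lowest listed count (left) and by distance in kb (right). Points are shares and bars 95% Wilson intervals. For T6 the share is 18.6% in the weakest class and 1.08% in the strongest, and it climbs with distance, whereas for T48 it lies between 17.3 and 19.8% at every distance.

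The strongest members had counts several times the lowest listed and no entry at 6 h. First by strength was a contact on chromosome 18 (mm9) over 595 kb, between the bins 76,530,001 to 76,535,000 and 77,125,001 to 77,130,000. It had 29 and 15 read pairs before ATRA, 0 and 0 at 6 h, and 25 and 23 at 48 h, where 3 read pairs were the lowest listed in every library at this distance. Of the 8 bin pairs within 1 bin of it, 4 were listed before ATRA and 5 at either later time.

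Chromosome 1 held 4 of the 10 strongest, and 8049 of the 57,117 pairs strong at T0 and T48. The contact between 141,800,001 to 141,805,000 and 142,030,001 to 142,035,000 had 22 and 24 read pairs in untreated cells, 0 and 0 after 6 h, and 21 and 19 after 48 h. The contact between 55,465,001 to 55,470,000 and 55,780,001 to 55,785,000 had 19 and 14 read pairs at T0 and 47 and 31 at T48, with both T6 libraries at 0. The contact between 85,110,001 to 85,115,000 and 85,270,001 to 85,275,000 differed between replicates, with 22 and 123 read pairs at T0 and 24 and 177 at T48. In that contact replicate 2 was the higher library at both times, although its listed sums were the smaller ones. The last of the 4 joined 163,675,001 to 163,680,000 with 163,895,001 to 163,900,000 and had 28 and 24 read pairs before ATRA, 0 and 0 at 6 h, and 20 and 15 at 48 h.

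A contact of chromosome 12 over 585 kb, from the bin at 10,600,001 to that at 11,185,001, had 18 and 15 read pairs in untreated cells, 0 and 0 after 6 h, and 27 and 12 after 48 h. Of the 8 positions around it, 7 were listed in untreated cells, 6 after 6 h and 8 after 48 h. The other 4 lay on chromosomes 8, 9 and 14, joined bins 125 to 325 kb apart, and had 26 to 45 and 13 to 18 read pairs at T0 and 21 to 51 and 15 to 26 at T48. Over all 10 contacts, 3 to 7 of the 8 neighbouring positions were listed before ATRA, 2 to 7 at 6 h and 2 to 8 at 48 h.

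**Figure D2:**
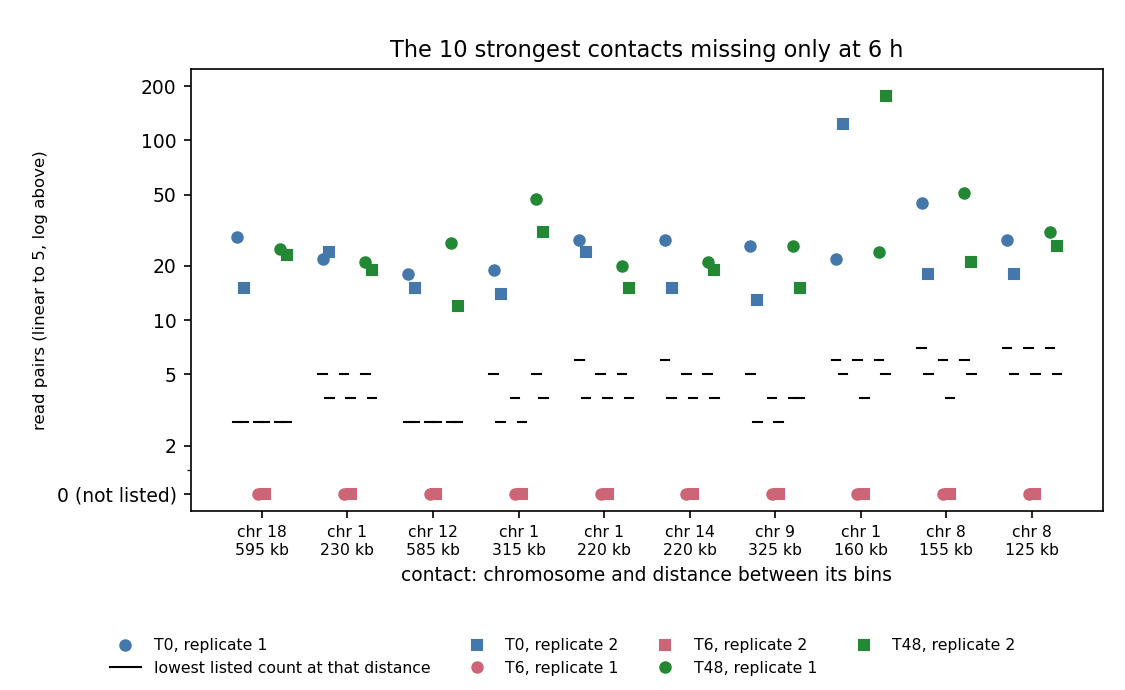
Read pairs per library (vertical axis, linear to 5 and logarithmic above) of the 10 members with the highest strength, in time order, with circles for replicate 1 and squares for replicate 2. Short black lines give the lowest count listed in that library at that distance, between 3 and 7, and both T6 libraries stand at 0, which means not listed.

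Most members did not adjoin another member, and most had some listed pair next to them at each time. Of the 7901, 7036 (89.1%) had no other member within 1 bin of both anchors, and the largest patches of adjoining members held 4. There were 3 of these. On chromosome 11, members joined the stretch from 96,160,001 to 96,175,000 with that from 96,440,001 to 96,455,000, and their counts summed to 44 and 30 read pairs in untreated cells, 0 and 0 after 6 h, and 65 and 54 after 48 h. On chromosome 6 they joined 56,430,001 to 56,445,000 with 56,560,001 to 56,570,000, with sums of 62 and 39 before ATRA, 0 and 0 at 6 h, and 61 and 45 at 48 h. At least 1 listed pair within 1 bin of both anchors was found for 90.9% of members at T0, 86.9% at T6 (Wilson interval 86.1 to 87.6%) and 90.2% at T48. On average 38.1% of the 8 neighbouring positions were listed before ATRA, 33.4% at 6 h and 38.4% at 48 h. For the pairs kept at T6 it was 49.0%, 46.2% and 47.5%. The part of the shorter T6 list in the lower value at T6 was not tested.

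Around the contacts missing only at 48 h fewer positions were listed at the time that misses them. Of those 11,650 pairs, 90.6% had a listed neighbour before ATRA, 89.1% at 6 h and 74.8% at 48 h, and 36.3%, 33.2% and 25.6% of the 8 positions were listed at these times. For the 4619 contacts missing only at T0, 87.3% had a listed neighbour before ATRA, 85.6% at 6 h and 88.0% at 48 h. These shares have no replicate error and were not tested against each other.

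**Figure D3:**
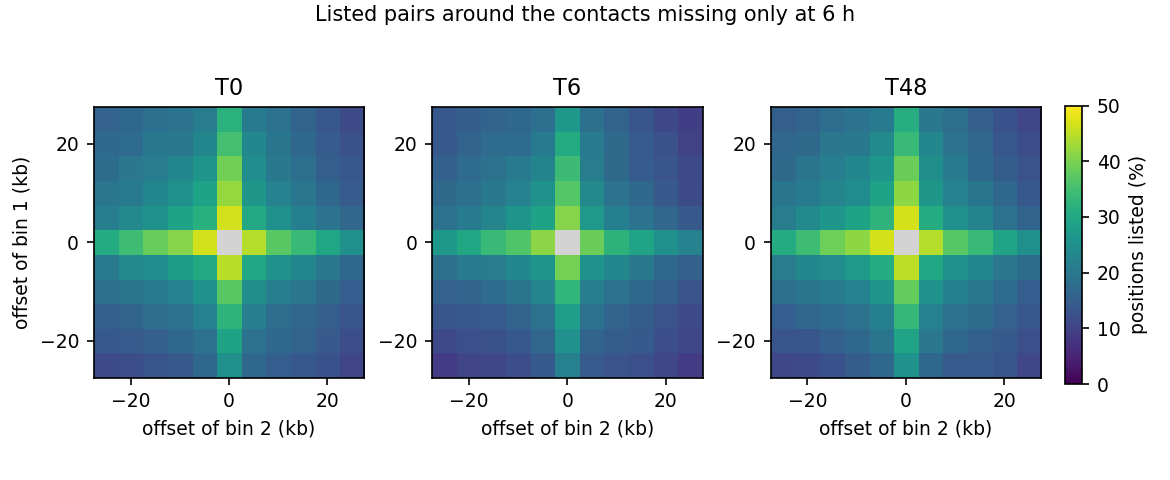
Share of bin pairs listed (colour, percent) at each offset of up to 25 kb from the 7901 members, at T0, T6 and T48. The axes give the offset of each anchor bin in kb, and the central square, fixed by the rule, is grey. All 3 panels show a cross of positions that share a bin with the member; next to the centre 45.5%, 40.1% and 45.8% of these were listed, against 30.6%, 26.8% and 31.1% of the positions that share none.

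Counts near the members were then compared in pairs listed at all 3 time points, none of which is a member. Such pairs still share bins and coverage with the members, which were chosen as unlisted at T6. Their values are therefore not independent of that choice, and its part in them was not tested. The question was whether the surrounding contact was lower at 6 h, and the contrast set T6 against the mean of T0 and T48 on the log2 scale. Counts were summed over pairs of 25 kb blocks. Of 70,594 block pairs tested with edgeR's quasi-likelihood test, 0 passed an adjusted p of 0.05 (0% called), also for T6 over T0 and for T48 over T6. DESeq2 called 1, 4 and 19 in these contrasts. Block pairs that hold a member numbered 4741 among those tested. Their median log2 difference was -0.040, beside 0.00006 over all block pairs, and -0.041 and -0.030 within replicates 1 and 2. Unadjusted p-values below 0.05 were found in 213 of the 4741 (4.49%), beside 3.27% of all. With T6 lower, they were found in 141 (2.97%), beside 1.20% of all. In the same member block pairs T6 over T0 had a median of 0.0042 and T48 over T6 one of 0.076, beside 0.00080 and -0.0015 over all.

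In each of 5 distance classes the median of member block pairs was below that of all. Member block pairs lay a median of 150 kb apart and all block pairs 50 kb. From 200 to 500 kb the median of T6 against the mean was -0.060 in 1720 member block pairs and -0.0099 in all 9708. Below 50 kb it was -0.027 and -0.0049. In the same order, T6 over T0 had medians of 0.038 and 0.040 from 200 to 500 kb, and of -0.048 and -0.011 below 50 kb. T48 over T6 had medians of 0.15 and 0.063 from 200 to 500 kb, and of 0.0013 and -0.0033 below 50 kb. From 200 to 500 kb T6 was thus not below T0, and T48 was the higher time. Single neighbouring pairs, within 2 bins of a member on both sides, gave a like picture: 17,628 were tested, with a median of -0.037 beside 0.0011 over all 148,767 pairs. Their T6 over T0 had a median of -0.0028 beside 0.0037 over all, and T48 over T6 one of 0.081 beside 0.0096. None of the tested pairs passed the edgeR test (0% called, and 0 in DESeq2), also in the other 2 contrasts. Unadjusted p-values below 0.05 were found in 872 (4.95%), beside 3.64% of all, and with T6 lower in 495 (2.81%), beside 1.38%. In simulated counts the test recovered 39 of 100 block pairs and 8 of 100 single pairs that differed by 2-fold, so 2-fold differences in single pairs would mostly go uncalled. The changed features were drawn at random over all tested, with a median distance of 50 kb. Those by the members lay farther apart, single pairs a median of 115 kb, so recovery among them was not measured.

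In short-range counts the median difference of the anchor bins at T6 was near that of all bins. A median does not show how far single bins differed. Each bin's pairs under 20 kb that were listed at all 3 times were summed, which uses no pair in the members' range. These sums share the bin and its coverage with the members, so they are not independent of the choice of members. Of 13,714 anchor bins, 11,597 had such pairs. Their median log2 difference of T6 against the mean of T0 and T48 was -0.0012, beside 0.0025 over all 286,039 bins. Among those bins edgeR called 15 (0.00524%), 14 higher and 1 lower at T6, and 1 of them was an anchor bin. Unadjusted p-values below 0.05 were found in 489 anchor bins (4.22%), beside 3.34% of all bins, and with T6 lower in 207 (1.78%), beside 1.40%.

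The bin called lower at T6 was the bin that occurs in most members. It lies on chromosome 1 (mm9) between 179,600,001 and 179,605,000 and is an anchor of 29 members, out of 42 strong pairs it had at T0 and T48. Its summed count of short pairs was 308 and 160 before ATRA, 122 and 62 at 6 h, and 394 and 253 at 48 h. In CPM (counts scaled to the normalised library sum of short-range counts) that was 6.31 ± 0.351 at T0, 2.82 ± 0.079 at T6 and 9.36 ± 0.097 at T48 (SD, n = 2). Both T6 libraries were below all 4 others. The difference of T6 from the mean of T0 and T48 was log2 -1.44 (SE 0.10, edgeR adjusted p = 0.0259). T48 over T6 also passed the test (log2 1.72, edgeR adjusted p = 0.0171), whereas T6 over T0 missed the threshold (log2 -1.16, edgeR adjusted p = 0.112, with 8 bins or 0.00280% called) and passed it in DESeq2 (adjusted p = 0.0188). These values rest on 2 pairs of bins under 20 kb, and with any 1 library left out no bin was called for T6 against the mean, while the log2 value of this bin lay between -1.48 and -1.41 (edgeR adjusted p = 0.0579 to 0.206). With pairs of all distances in the sum it was -1.33 (edgeR adjusted p = 0.0601), and in windows of 25 kb -0.61 (edgeR adjusted p = 0.251).

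The same bin had 119 listed interactions before ATRA, 22 at 6 h and 131 at 48 h, its members included. Its 29 members reached from 20 to 800 kb, with a median of 190 kb and 28 of the 29 partners at lower coordinates. They summed to 500 and 316 read pairs in untreated cells, 0 and 0 after 6 h, and 551 and 360 after 48 h. The 13 strong pairs of the bin that T6 did list held 332 and 198 read pairs before ATRA, 128 and 78 at 6 h, and 339 and 234 at 48 h. Among the adjacent bins, within 10 kb on either side, the median number of interactions was 21 before ATRA, 19.5 at 6 h and 29.5 at 48 h. A bin 30 kb away, itself in 5 members, had 182, 168 and 190 at these times. The bin 5 kb away at higher coordinates had 25, 24 and 39. Some bins with few interactions were also lowest at 6 h, with 17, 5 and 16 at 40 kb and 14, 5 and 12 at 45 kb.

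In 7 further bins with at least 9 members, 1 of the T6 libraries was low and the other was not. Together these 8 bins, 6 of them on chromosome 1, hold 133 members (1.68%), out of 198 strong pairs. Of all 57,117 strong pairs, 8049 lay on chromosome 1. On chromosome 1, the bin from 161,745,001 to 161,750,000 (21 members of 28 strong pairs) had short-range counts of 390 and 233 in untreated cells, 359 and 75 after 6 h, and 378 and 248 after 48 h. There T6 replicate 2 was low and T6 replicate 1 was not. On chromosome 8, the bin from 60,130,001 to 60,135,000 (20 members of 37) had 330 and 201 before ATRA, 104 and 167 at 6 h, and 349 and 228 at 48 h, so here replicate 1 was the low library. The bins of chromosome 1 from 15,880,001 (16 members of 19 strong pairs) and from 171,760,001 (15 of 15) were low in replicate 1 as well. The first had 596 and 365 read pairs in untreated cells, 204 and 286 after 6 h, and 622 and 471 after 48 h, and the second 464 and 254 before ATRA, 172 and 216 at 6 h, and 523 and 314 at 48 h.

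Over these 7 bins the low T6 library stood at 0.320 to 0.373 of the mean of T0 and T48 with the same replicate number (in CPM), and the other T6 library at 0.824 to 1.00. In the bin from 179,600,001 the T6 libraries stood at 0.366 and 0.368. Replicate 1 was the low one in 4 of the 7 bins and replicate 2 in 3. Their log2 difference of T6 against the mean was -0.77 to -0.51 and did not pass the edgeR test (unadjusted p = 0.0192 to 0.0981). Because both T6 libraries were listed or at 0 together, members of these bins stand at 0 also in the T6 library that was not low. A 0 in that library does not show that the contact was absent from it. The 7901 members without those at bins with 5 or more members number 7625, of which 90.9% had a listed neighbour at T0, 87.7% at T6 and 90.1% at T48. Of the 276 members at such bins, 89.5% had one at T0, 65.9% at T6 and 92.4% at T48. Such bins were picked by their number of members, all of them unlisted at T6. Some neighbouring positions share the bin with the member, so the share at T6 is not independent of that choice. The part of the choice in the lower value at T6 was not tested.

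**Figure D4:**
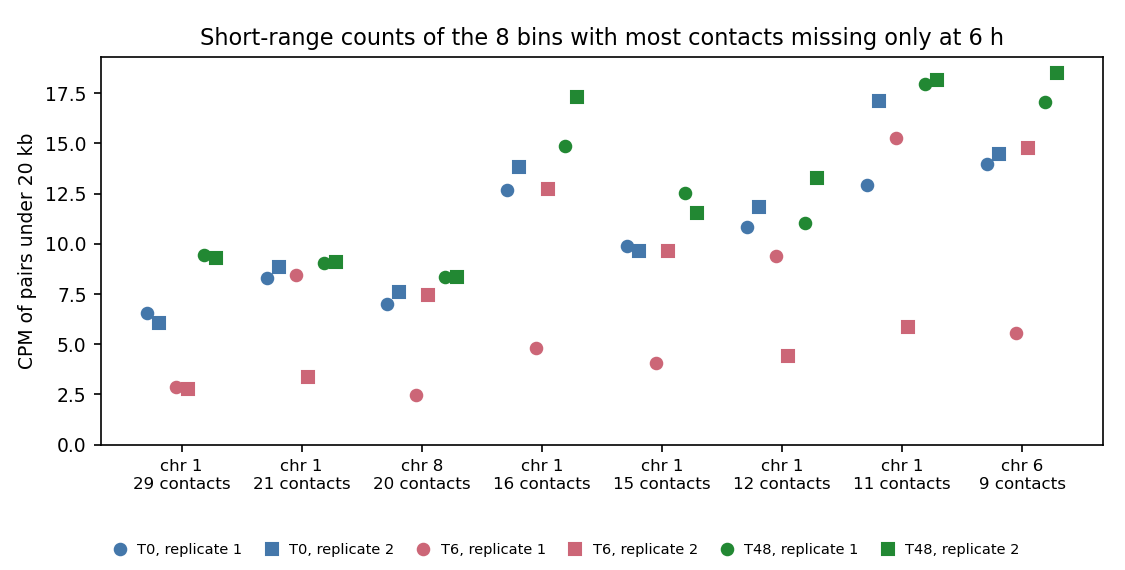
CPM of pairs under 20 kb (vertical axis, from 0) in each library for the 8 bins with at least 9 members, in order of their number of members. In the first bin both T6 libraries lie below all others, and in each of the other 7 a single T6 library lies far below the rest.

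Bins with a count low in 1 library were looked for over all bins after these values had been seen. Among 78,820 bins with a median short-range count of at least 150, a bin was taken where the other 5 libraries lay within a log2 range of 1 and the remaining library was more than 1.1 below their median. There were 3 and 40 such bins for the T0 libraries, 7 and 12 for the T6 libraries, and 232 and 12 for the T48 libraries. Of the 7 and 12 bins low at T6, 4 and 5 were anchor bins of members, and 4 and 3 of these were the bins in 9 or more members that had prompted the search, so nothing is read from their number. Anchor bins were 4.63% of the bins examined. Of the 232 bins low in T48 replicate 1, 148 lay on chromosome 1. The share of chromosome 1 among the bins examined was not taken, so this number has no background beside it. The origin of these low counts was not tested.

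Anchors with many members were bins with many interactions, which is in part set by the rule. Each member is a pair listed at T0 and T48, so a bin with more listed pairs can be in more members. There were 34 bins in 5 or more members, with a median of 89.5 interactions before ATRA, 73.5 at 6 h and 92.5 at 48 h. Chromosome 1 held 15 of these bins, and 8049 of the 57,117 pairs strong at T0 and T48. The members are part of these numbers of interactions and were chosen as unlisted at T6, so the lower number at 6 h is in part set by the rule. The bin of chromosome 6 from 99,110,001, with 6 members of 13 strong pairs, was also low in T6 replicate 2 alone, with short-range counts of 304 and 224 in untreated cells, 294 and 71 after 6 h, and 299 and 197 after 48 h. Over all 13,714 anchor bins, with the same limit, the median numbers of interactions were 18, 15 and 17. Over all bins of pairs strong at T0 and T48, anchor bins included, they were 17, 14 and 15. Most anchors served 1 member (12,108 bins). Only 35 bins had no listed interaction at T6 at all, and 35 members have such a bin.

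**Figure D5:**
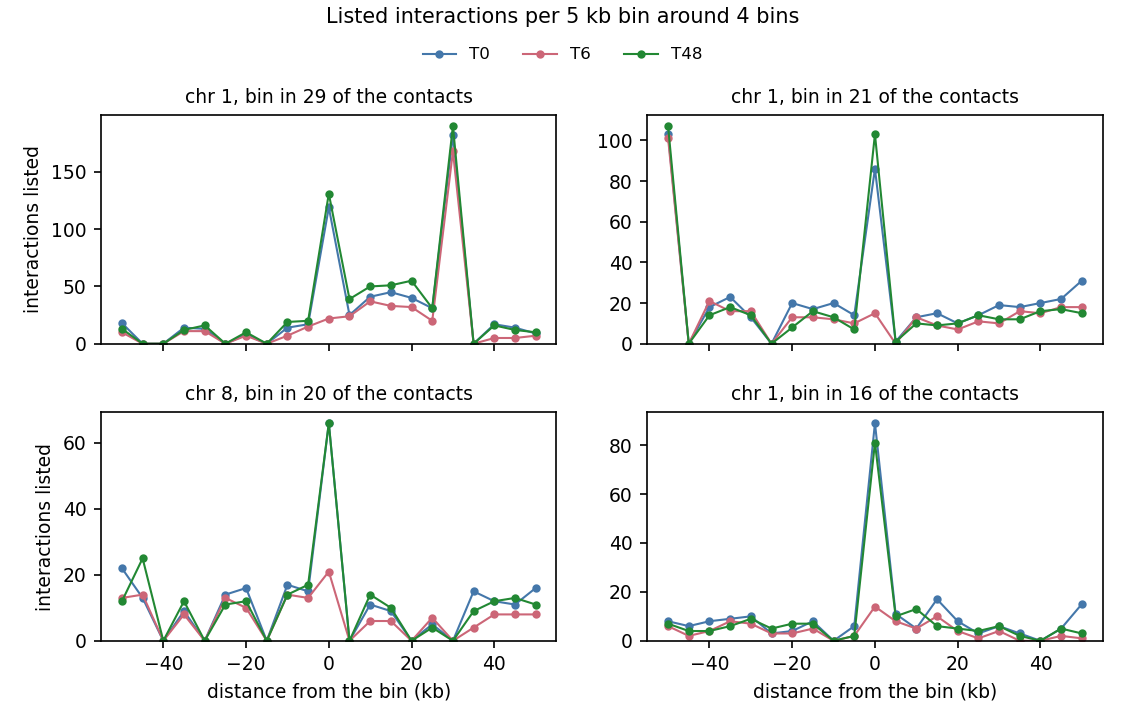
Number of listed interactions per 5 kb bin at T0, T6 and T48 within 50 kb of the 4 bins with most members (horizontal axis, distance in kb). In each panel the central bin is low at T6 alone, with 119, 22 and 131 interactions in the first, while the tallest bin of that panel, 30 kb away, had 182, 168 and 190. Other bins can be low at T6 too, such as that at 40 kb in the first panel, with 17, 5 and 16.

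Another 3 anchor bins, each in 1 member, differed between T48 and T6. In this contrast edgeR called 72 of 286,039 bins (0.0252%) and 4 of the 11,597 anchor bins (0.0345%). These shares are near each other, so nothing is read from the number of anchor bins called. The bin of chromosome 6 from 101,150,001 to 101,155,000 had short-range counts of 123 and 78 before ATRA, 114 and 68 at 6 h, and 336 and 247 at 48 h (log2 1.59, edgeR adjusted p = 0.0204). The bin of chromosome 1 from 196,045,001 to 196,050,000 had 124 and 74 in untreated cells, 126 and 66 after 6 h, and 318 and 235 after 48 h (log2 1.45, edgeR adjusted p = 0.0204). In both, the T6 counts were near those of T0 and the T48 counts were higher. The bin of chromosome 1 from 132,480,001 to 132,485,000 went the other way, with 231 and 116 before ATRA, 342 and 188 at 6 h, and 164 and 106 at 48 h (log2 -1.07, edgeR adjusted p = 0.0379). It had its highest counts at 6 h, when its member was not listed. With either T0 or either T6 library left out none of these 3 bins, nor the bin with 29 members, passed the test of T48 over T6 (edgeR adjusted p = 0.0535 to 0.266). The bin from 132,480,001 also missed it without T48 replicate 1 (edgeR adjusted p = 0.171), without T48 replicate 2 (edgeR adjusted p = 0.0865) and with pairs of all distances (edgeR adjusted p = 0.0605). In windows of 25 kb the bins from 196,045,001 and 101,150,001 and the bin with 29 members missed it (edgeR adjusted p = 0.0605 to 0.0675).

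Members were spread over the genome. They occurred in 1690 of 2184 windows of 1 Mb. Among the 917 windows with at least 20 strong pairs, a median of 12.9% of strong pairs were missing at T6, with quartiles of 8.70 and 18.2%, and 2 windows exceeded 50%. The window with most members was that of chromosome 1 from 179,000,001 to 180,000,000, where 6 of 158 strong pairs were missing at T0, 40 of 232 at T6 and 2 of 148 at T48. It contains the bin with 29 members. The next was the window of chromosome 1 from 161,000,001, with 27 of 111. In the windows of chromosome 11 from 69,000,001 (26 of 162) and chromosome 4 from 154,000,001 (24 of 146) no bin had 5 or more members, and 25 of 173 and 21 of 147 were missing at T48. In the window of chromosome 8 from 60,000,001, 24 of 80 were missing at T6.

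Chromosomes 1 and 14 marked the ends of the range. Chromosome 1 had the most members, 703, but the lowest share of strong pairs missing at T6, 8.73%. The share missing there was 5.29% for T0 and 22.9% for T48. Chromosome 14 had the highest share at T6, 20.7%, and also 15.6% at T0 and 27.4% at T48. The median over the 19 autosomes was 14.4% at T6.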

How the data were processed

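The authors deposited 1 table of raw counts of Hi-C read pairs per pair of 5 kb bins and library, per the file headers. Its name describes significant interactions found in both replicates. CASAVA 1.8.2, Bowtie2 and build mm9 are named, per the submitters' processing notes. The caller, its threshold and whether bin coverage was corrected for are not given in the sources used here. Sample titles gave the groups and replicates. Read pairs have no molecular identifiers, so Wilson intervals cover counting error only. The members, tests and lists were chosen with earlier results of these data known. Strength is the lowest, over the T0 and T48 libraries, of count over lowest listed count.

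Counts were tested with edgeR 4.0.16 in R 4.3.3 (TMM, filterByExpr, quasi-likelihood F test, all 6 libraries in 1 fit, two-sided, Benjamini-Hochberg at 0.05), with DESeq2 1.42.0, its size factors, no filter, a replicate block, other sizes of bins and leaving out each library as alternatives. On simulated counts, 71 of 100 bins with 2-fold changes among 286,039 were recovered. Named are the 10 strongest members (1 per 500 kb), the 5 bins and 5 windows of 1 Mb with most members, and called bins; the bins in 9 or more members were added after their values were seen. Without an mm9 annotation or genome, genes are not named, gene lists not compared and sequences not shown.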

Additional observations from a re-analysis of the deposited data

Results flagged for a closer look

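In 4 anchor bins the change from T0 differed between the times, by the edgeR test of T48 over T6. The log2 values were 1.72 for the bin of chromosome 1 from 179,600,001, -1.07 for that from 132,480,001, 1.45 for that from 196,045,001, and 1.59 for the bin of chromosome 6 from 101,150,001. The first has 29 of the contacts missing only at 6 h, and each of the others has 1. These are 4 of 11,597 anchor bins (0.0345%), near the share over all bins, 72 of 286,039 (0.0252%), so nothing is read from their number. None of the 4 passed with any T0 or T6 library left out, the bin from 132,480,001 also failed without either T48 library, and the other 3 failed in windows of 25 kb (edgeR adjusted p = 0.0605 to 0.0675).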

How the results depend on the processing

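A lower multiple gave 26,674 members and a share of 23.4%, and a multiple of 2 gave 1332, 6.14% and 90.0% with a listed neighbour. From 50 kb the share was 15.1%. A listed neighbour was found for 95.7% within 2 bins and for 87.7% without members at bins of 5 or more members, an alternative chosen after seeing the data. With 1 T0 or T48 library left out of the rule, 11,659 to 14,859 pairs met it, 17.2 to 19.1% of strong pairs; leaving out any of T0 replicate 2 and the T48 libraries moved the number by over 1.5 times, to 14,859, 12,670 and 14,139.

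For T6 over the mean, T6 over T0 and T48 over T6, DESeq2 called 1, 4 and 19 block pairs and 38, 32 and 129 bins. Sums over all distances gave 4, 0 and 28 bins, and windows of 25 kb gave 4, 3 and 22. With 1 library left out, edgeR called 0 bins for the first 2 contrasts and 0 to 216 for T48 over T6, where 216 were called without T48 replicate 2 and 0 without any T0 or T6 library. Replicate numbers have no labelled common origin, though same-numbered libraries deviated together (correlations 0.315 to 0.465); with the replicate number as a block 23, 34 and 148 bins were called, and 9 block pairs for T48 over T6, and the bin from 179,600,001 passed for T6 over T0 (log2 -1.17, edgeR adjusted p = 0.0294).

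T6 over T0, which missed the threshold in these bins, ranged over left-out libraries from -1.36 to 0.024 in the bin of chromosome 1 from 77,415,001, from -1.36 to 0.054 and from -0.067 to 0.14 in those of chromosome 6 from 94,555,001 and 101,150,001 (also -0.042 without T6 replicate 2), and from -1.58 to 0.030 in that of chromosome 8 from 60,130,001; 0.054 and 0.030 were without T6 replicate 1, 0.024 without T6 replicate 2. The cause was not tested.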
